A study of Mus musculus with 3 samples.

Results

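Alternative exon end events are places in a gene where the same internal exon is listed with more than 1 start or more than 1 end. They were taken from the deposited lists of transcript events of 3 mouse embryonic stem (ES) cell samples as all rows whose event type was AE, or AE with a leading X (XAE). Such rows numbered 13165 in wildtype, 13107 in Pcgf1KO and 13205 in Pcgf1KO+Pcgf1_flag, which is 39477 of the 468064 rows in all. Each row gives an exon with its start, its end and an FPKM (fragments per kilobase of transcript scaled to the mapped fragments of the library). Exons of the same class, gene and strand that overlapped and shared an end were tied into an event, and each such exon is called a form. The rows held 15264 distinct forms, and 7141 events with at least 2 forms in 4266 gene names. A total of 6451 events had 2 forms, 544 had 3, 108 had 4 and 38 had 5 or more, up to 8.

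Poly-A RNA was sequenced from 1 sample each of 3 kinds of C57BL/6 mouse ES cells, grown with leukemia inhibitory factor on embryonic fibroblast feeders inactivated with mitomycin-C. The study asked what the loss of Pcgf1, the Polycomb ring-finger subunit that defines the variant repressive complex PRC1.1, does to transcripts in ES cells. The wildtype cells carried no edit. The Pcgf1KO cells were made with Cas9 and a pair of guide RNAs that delete exons 2 and 3 of Pcgf1, and were grown from a puromycin-selected colony. The Pcgf1KO+Pcgf1_flag cells were Pcgf1KO cells infected with a lentivirus for Pcgf1 with an N-terminal FLAG tag and again selected with puromycin, so they share the deletion. With 1 sample per group there was no test between groups, and every difference below compares 3 libraries, in which a difference between conditions and a difference between cultures cannot be told apart.

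The spliceosome joins exons at a donor site, the 5′ end of an intron that nearly always begins with GT, and an acceptor site, the 3′ end of an intron that nearly always ends with AG. Where a gene offers a second donor or acceptor nearby, the exon can be cut longer or shorter, and the extra segment adds residues to the protein, shifts the reading frame or changes the untranslated leader. A shift of frame often brings an early stop codon, and such transcripts are marked in annotations as targets of nonsense-mediated decay, the pathway that degrades messages with an early stop.

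The inner splice sites of the 2-form events named below for the size of their difference, other than that of Taf4b, whose sequence is not shown here, come first, since the share of the longer form turns on them. Hsp90aa1 was added as the most abundant event with both forms in use, and Pcgf1 as the targeted gene. The sequences were read from the GENCODE vM21 transcripts that hold the longer form (GRCm38, the same build as mm10), in the 5′ to 3′ direction of the gene. Capitals mark the splice dinucleotide of the shorter form, which lies inside the exon when the longer form is used. In donor events the 9 bases before it belong to both forms, and in acceptor events the 9 bases after it do.

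Rab3gap2 donor, chr1:185267006-185267029, plus strand: ccagagaagGTattacacgaagtt
Usp33 donor, chr3:152389823-152389843, plus strand: ttgtaaaggGTaaggatggag
Paxip1 donor, chr5:27783715-27783738, minus strand: tctcctgccGTatccttttgtgcg
Bptf donor, chr11:107054840-107054863, minus strand: cagccccagGTacagtcttcaact
Becn1 donor, chr11:101296243-101296266, minus strand: cccagccagGTgcttactattcct
Wiz donor, chr17:32381069-32381092, minus strand: cagcagctgGTgagtgccacgctg
Tsc22d4 donor, chr5:137762689-137762708, plus strand: ggcgactatGTaggtggaag
Tle1 acceptor, chr4:72199389-72199412, minus strand: gctggtcacctgcAGacgccgcac
Brix1 acceptor, chr15:10483354-10483377, minus strand: catcttttcttccAGaggaataaa
Tcf12 acceptor, chr9:72110816-72110834, minus strand: gacctgctAGaagtggctg
Ucp2 acceptor, chr7:100498721-100498744, plus strand: cctgcttcatggcAGatgacctcc
Hsp90aa1 acceptor, chr12:110695672-110695695, minus strand: tcctctgtgttccAGatgcctgag
Pcgf1 acceptor, chr6:83080065-83080088, plus strand: tcggtgttctgtgAGagctgaggt

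The letters at the inner end of the longer exon were those of a splice site in nearly all measured 2-form events. AG stood there in 1783 of 1798 acceptor events (99.2%) with a sequence, and GT in 1005 of 1071 donor events (93.8%), with GC in 49 more donor events. A match is a description of the annotated exon ends and was not used to choose events.

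An event was taken as measured when its forms summed to at least 1 FPKM in each of the 3 samples. This left 3253 events (45.6%) in 2074 gene names, of which 2345 had at least 5 FPKM in every sample, and the other 3888 events are not described by shares here. The median summed FPKM of the measured events was 13.1 in wildtype, 12.4 in Pcgf1KO and 11.9 in Pcgf1KO+Pcgf1_flag. Of the measured events, 404 were of the XAE class, and 166 of these had a counterpart in the AE class with the same outer ends. The forms of an event carry the FPKM of whole assembled transcripts: of 601 genes with at least 2 measured events, 489 (81.4%) had the same summed FPKM for all their events in wildtype, within 0.001. Events of the same gene are therefore not separate measurements.

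The forms were mostly annotated exons. Of the 15264 forms, 14227 (93.2%) matched an exon of GENCODE vM21, and 99.9% of the matched forms were internal exons of a transcript. All 3 samples listed 11581 forms (75.9%), and 2632 were listed in 1 sample only. The share in GENCODE was 99.1% for forms listed in all 3 samples and 69.0% for forms listed in 1 sample.

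The number of reads is unknown, since the files hold FPKM only. Pcgf1 had 14.0 FPKM in wildtype, 5.88 in Pcgf1KO and 7.86 in Pcgf1KO+Pcgf1_flag, and the deposited rows do not separate transcripts with and without the deleted exons. The 6 ES cell markers listed in all 3 samples, of 8 chosen, summed to between 1720 and 1908 FPKM. Against wildtype, 0 of the 6 differed by 2-fold in Pcgf1KO or Pcgf1KO+Pcgf1_flag. The sum does not show single markers, and Nanog had 68.2 FPKM in wildtype, 46.3 in Pcgf1KO and 123 in Pcgf1KO+Pcgf1_flag. Of 12 feeder fibroblast markers, 10 were listed, and they summed to 18.3 FPKM in wildtype, 8.25 in Pcgf1KO and 19.5 in Pcgf1KO+Pcgf1_flag, with 1, 3 and 1 of them at 0. Thy1 made up most of these sums (14.2, 6.39 and 13.5 FPKM), and the collagen genes Col1a1 and Col1a2 were at or below 2.21 FPKM in every sample. The part of feeder RNA in the shares was not tested, and in bulk RNA fewer cells of a type and less RNA per cell cannot be told apart.

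Acceptor events were more numerous than donor events. Of the measured events, 1808 (55.6%) differed in the acceptor, 1079 (33.2%) in the donor, and 366 (11.3%) had more than 2 forms. The 2 ends lay a median of 49 bases apart in acceptor events and 58 bases apart in donor events, and 23.5% and 32.9% of them were more than 100 bases apart. The smallest difference was 10 bases, so that tandem sites only a few bases apart are not among the events. In 54 events of more than 2 forms, 2 of the forms did not overlap, and there a share is not a choice between ends of the same exon.

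Differences of a multiple of 3 bases, which keep the reading frame where the segment is coding, were frequent. The difference was a multiple of 3 bases in 1264 of 2887 measured 2-form events (43.8%), in 44.7% of acceptor events and in 42.2% of donor events. Within the coding span of an annotated transcript the shares were 46.9% for acceptors and 43.7% for donors.

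**Figure D1:**
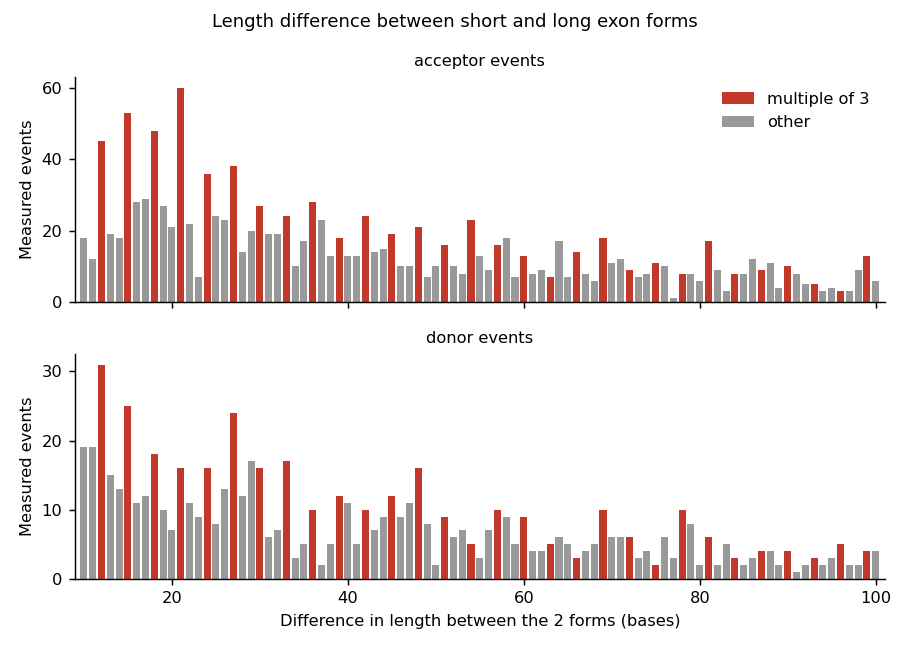
The number of measured 2-form events (vertical axis) is plotted for each difference in length from 10 to 100 bases (horizontal axis), for acceptor events above and donor events below, with multiples of 3 in red and all other lengths in grey. Red bars stand above their neighbours at most short lengths, and multiples of 3 make up 44.7% of all acceptor events and 42.2% of all donor events.

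At most events a single form carried all the FPKM. Only 1 form was above 0 in 2489 measured events (76.5%) in wildtype, 2503 (76.9%) in Pcgf1KO and 2521 (77.5%) in Pcgf1KO+Pcgf1_flag. The same single form was the sole one above 0 in all 3 samples at 2224 events (68.4%), and at least 2 forms were above 0 in all 3 samples at 512 events. A second form reached a share of 10% or more in 748 events (23.0%) in wildtype, 735 (22.6%) in Pcgf1KO and 724 (22.3%) in Pcgf1KO+Pcgf1_flag. The longer form was the major form in 50.2%, 49.7% and 50.3% of the 2-form events in the same order, which is close to an even split in every sample. The major form was the same in all 3 samples at 93.2% of events.

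The 5 most abundant events with a single gene name were of this single-form kind. Rps27, which encodes a small-subunit ribosomal protein, had 5039, 5081 and 4578 FPKM in wildtype, Pcgf1KO and Pcgf1KO+Pcgf1_flag on its shorter form, and its form with an acceptor 197 bases upstream was listed at 0. Gapdh, a glycolytic enzyme, had 4768, 4666 and 3763 FPKM on the longer of its donor forms, 65 bases apart. Rplp0 and Rpl41 showed the same pattern with the shorter form, and Rpl18 with the longer. In all 5 genes the share of the used form was 100% in every sample. Genes of this kind have processed pseudogenes, and how reads shared with these were counted is not given in the sources used here.

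Use of both forms went with the reading frame. Among 1145 measured 2-form events in the coding span with a difference that is a multiple of 3, both forms had a share of 10% or more at 28.7% in wildtype, 27.9% in Pcgf1KO and 26.8% in Pcgf1KO+Pcgf1_flag. Among 1362 with another difference the values were 11.6%, 11.1% and 11.3%. At 259 events in the 5′ UTR they were 26.6%, 26.3% and 27.8%. Frame-shifting coding events were thus lowest in each of the 3 samples, and the order of the other classes differed between samples.

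**Figure D2:**
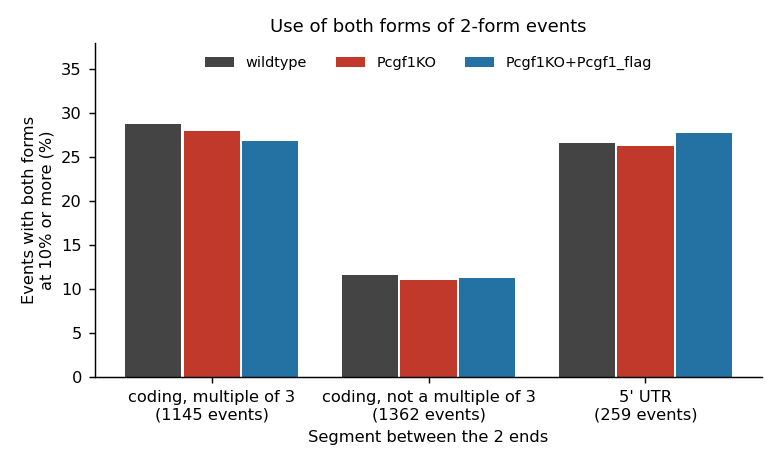
Bars give the percentage of measured 2-form events in which both forms have a share of 10% or more (vertical axis, from 0) for 3 positions of the segment (horizontal axis) in each of the 3 samples, 1 sample per bar. Coding segments with a length that is a multiple of 3 lie between 26.8% and 28.7%, other coding segments between 11.1% and 11.6%, and 5′ UTR segments between 26.3% and 27.8%.

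Forms annotated in a transcript that is a target of nonsense-mediated decay, and in no protein-coding transcript, had low shares in all 3 samples. Their mean share over 953 forms was 4.87% in wildtype, 4.68% in Pcgf1KO and 4.96% in Pcgf1KO+Pcgf1_flag, against 62.7%, 62.8% and 62.8% for 4977 forms of protein-coding transcripts. In 763 events that pair such a form with a protein-coding form, the decay form was listed at 0 in 662, 662 and 663 events and reached 10% in 98, 98 and 100. Its share was higher by 20 percentage points or more in Pcgf1KO than in wildtype at 23 of the 763 events and lower at 22. From Pcgf1KO to Pcgf1KO+Pcgf1_flag it was higher at 24 and lower at 19, and from wildtype to Pcgf1KO+Pcgf1_flag at 28 and 28. For scale, the longer form of all measured 2-form events was higher in Pcgf1KO than in wildtype at 3.81% and lower at 4.78%. The 118 forms not in GENCODE had mean shares of 21.4%, 22.6% and 21.8%.

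To ask whether the loss of Pcgf1 goes with other exon ends, the share of each form in the summed FPKM of its event was compared between samples, and an event was called when the share of any form differed by 20 percentage points or more. Between Pcgf1KO and wildtype 322 of 3253 measured events were called (9.9%), in 267 gene names, against 8.47% of the 14450 measured events of all types. The percentage was 9.4 for single exon skipping, 5.63 for multiple exon skipping and 4.76 for intron retention. The share differed by less than 1 point at 73.3% of the events, by 40 points or more at 97 and by 80 points or more at 7. Of the 2-form events, the longer form was higher by 20 points or more in Pcgf1KO at 110 (3.81%) and lower at 138 (4.78%). The longer and the shorter form were thus both among those with higher shares.

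The other comparisons gave similar counts. Between Pcgf1KO+Pcgf1_flag and Pcgf1KO, the step at which Pcgf1 was added back, 302 events were called (9.28%), against 7.95% for all event types, 9.05% for single exon skipping, 5.63% for multiple exon skipping and 3.21% for intron retention. Of the 2-form events, the longer form was higher in Pcgf1KO+Pcgf1_flag at 111 (3.84%) and lower at 108 (3.74%). Between Pcgf1KO+Pcgf1_flag and wildtype 345 were called (10.6%), against 8.71% for all types, 9.53% for single exon skipping, 5.8% for multiple exon skipping and 4.65% for intron retention. The longer form was higher in Pcgf1KO+Pcgf1_flag at 120 of the 2-form events (4.16%) and lower at 144 (4.99%). The comparison of Pcgf1KO+Pcgf1_flag with wildtype thus gave no fewer calls than that of Pcgf1KO with wildtype. The comparisons share samples, so their calls are given side by side only.

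**Figure D3:**
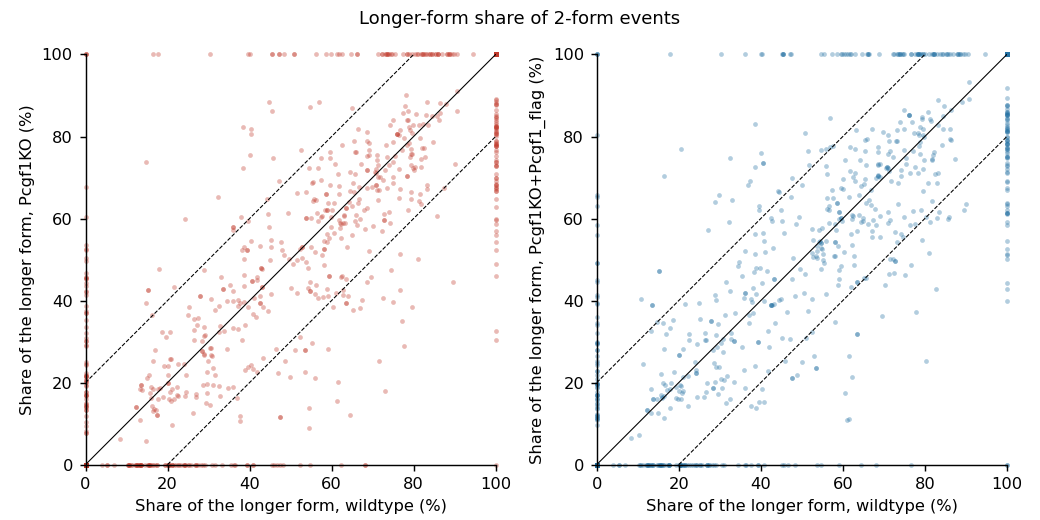
Each point is a measured 2-form event, placed by the share of its longer form in wildtype (horizontal axis, %) and in Pcgf1KO (left) or Pcgf1KO+Pcgf1_flag (right) (vertical axis, %), with equal shares on the solid line and a difference of 20 points on the dashed lines. Points lie on both sides of the solid line in both panels, many of them on the edges where a form is listed at 0, and 248 points on the left and 264 on the right lie on or beyond the dashed lines.

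Most calls rested on a form listed at 0 in 1 of the samples. In 233 of the 322 events called between Pcgf1KO and wildtype (72.4%), a form with a share of 20% or more in 1 sample was listed at 0 or not listed in the other. The counts were 220 of 302 between Pcgf1KO+Pcgf1_flag and Pcgf1KO and 248 of 345 between Pcgf1KO+Pcgf1_flag and wildtype. Among the 512 events with at least 2 forms above 0 in all 3 samples, 94 (18.4%), 81 (15.8%) and 105 (20.5%) were called in these comparisons. These percentages were higher than the 9.9%, 9.28% and 10.6% over all measured events. The median difference in the 512 events was 6.91, 6.59 and 7.69 points. A change of more than 2-fold in the summed FPKM went with 7.14% of the events called between Pcgf1KO and wildtype and with 3.32% of all measured events.

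Calls were most frequent at low levels. With the lowest summed FPKM of the 3 samples between 1 and 2, 23.7% of 270 events were called between Pcgf1KO and wildtype. The percentage was 15.7 of 638 events from 2 to 5 FPKM, 10.7 of 665 from 5 to 10, 6.36 of 990 from 10 to 30 and 3.48 of 690 events at 30 or more. The other comparisons followed the same order, from 21.1% to 3.77% between Pcgf1KO+Pcgf1_flag and Pcgf1KO and from 22.6% to 4.06% between Pcgf1KO+Pcgf1_flag and wildtype. The part of sampling and of transcript assembly in these calls was not tested.

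**Figure D4:**
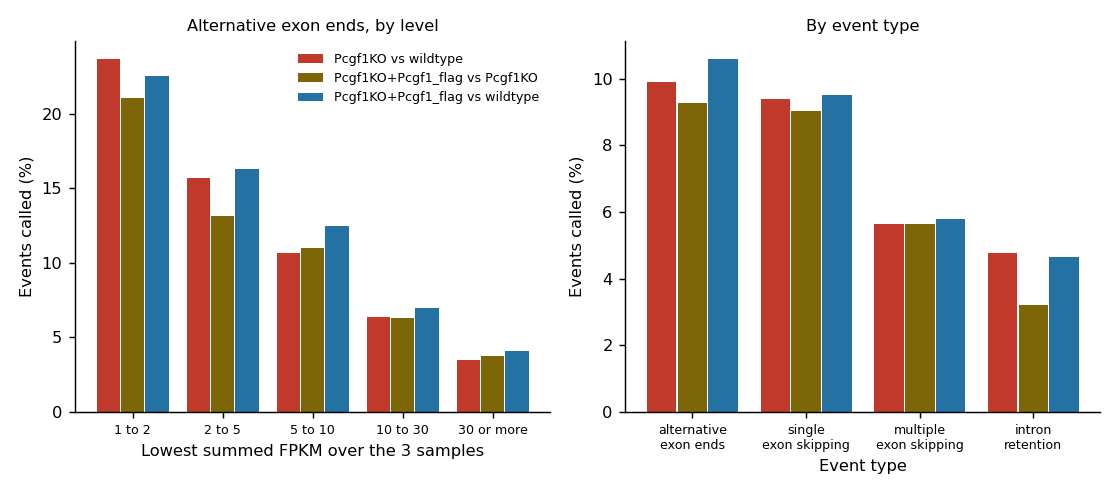
Bars give the percentage of measured events that were called in each of the 3 comparisons (vertical axes, from 0), on the left for alternative exon ends by the lowest summed FPKM over the 3 samples and on the right by event type. On the left the bars decline from between 21.1% and 23.7% at 1 to 2 FPKM to between 3.48% and 4.06% at 30 FPKM or more, and on the right alternative exon ends lie between 9.28% and 10.6%.

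The percentage called differed more with the number of forms than with the kind of end. Between Pcgf1KO and wildtype 8.74% of acceptor events, 8.34% of donor events and 20.2% of events with more than 2 forms were called. A difference in any form makes a call, so by this rule an event with more forms has more chances of a call. In wildtype a second form also reached 10% in 43.7% of these events, against 20.4% of acceptor and 20.4% of donor events. Coding events with a difference that is a multiple of 3 were called at 10.7%, other coding events at 5.14% and 5′ UTR events at 13.5%. Between Pcgf1KO+Pcgf1_flag and Pcgf1KO the last 3 values were 9.26%, 5.07% and 12.4%, and between Pcgf1KO+Pcgf1_flag and wildtype 10.8%, 6.09% and 14.7%. The 5′ UTR events had the highest and frame-shifting coding events the lowest percentage of these classes in each comparison. Frame-shifting coding events also had both forms in use least often, at 11.6% of events in wildtype. The value was 28.7% for coding events with a multiple of 3 and 26.6% for 5′ UTR events. The percentages called are over all events of a class. Whether shares were steadier among events with both forms in use was not tested.

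Calls at exon ends and calls at skipped exons partly fell in the same genes. Of 163 genes with a called exon end event between Pcgf1KO and wildtype and a measured skipping event, 46 (28.2%) also had a called skipping event, against 147 of 1155 genes without a called exon end event (12.7%). Those 46 genes were 23.8% of the 193 genes with a called skipping event. Both event types carry the FPKM of the same assembled transcripts, so this is a description without a test.

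The named events with the largest differences between Pcgf1KO and wildtype were chosen among events with a single gene name and at least 5 FPKM in every sample, and their differences are a description. Rab3gap2 encodes the non-catalytic subunit of the complex that activates GTP hydrolysis by Rab3. Its event lies in exon 25 of 35 (chromosome 1, 185266901 to 185267074), where the donors are 60 bases apart. The shorter form had 10.9 FPKM in wildtype, 0 in Pcgf1KO and 3.96 in Pcgf1KO+Pcgf1_flag, and the longer form 0, 6.43 and 7.42 FPKM. The share of the longer form was 0%, 100% and 65.2%, so Pcgf1KO+Pcgf1_flag lay between the other samples.

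Usp33, a deubiquitinase, has donors 12 bases apart in exon 22 of 24 (chromosome 3, 152389741 to 152389843). The shorter form had 7.15 FPKM in wildtype and was listed at 0 in Pcgf1KO and Pcgf1KO+Pcgf1_flag, while the longer form had 3.12, 6.58 and 6.23 FPKM. The share of the longer form was 30.4% in wildtype and 100% in both other samples. Brix1, a factor of ribosome assembly, showed the same order at an acceptor pair 44 bases apart (chromosome 15, 10483295 to 10483406). Its shorter form had 34.7 FPKM in wildtype and was listed at 0 in the other samples, and its longer form had 28.9, 40.7 and 68.4 FPKM. In both genes Pcgf1KO+Pcgf1_flag had the same share as Pcgf1KO and not that of wildtype.

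Paxip1, which encodes a BRCT-domain protein that associates with histone methyltransferases of the KMT2 family, has donors 49 bases apart in exon 3 of 21 (chromosome 5, 27783681 to 27783773). Its shorter, protein-coding form had 4.41 FPKM in wildtype, 11.1 in Pcgf1KO and 3.88 in Pcgf1KO+Pcgf1_flag. Its longer form, which GENCODE marks as a target of nonsense-mediated decay, had 9.42, 0 and 8.97 FPKM. The share of the longer form was 68.1%, 0% and 69.8%, so Pcgf1KO alone stood apart.

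Tle1, a co-repressor of the Groucho family, had the same pattern at an acceptor pair 24 bases apart in exon 2 of 20 (chromosome 4, 72199297 to 72199421). The shorter form had 6.30, 13.7 and 3.63 FPKM in wildtype, Pcgf1KO and Pcgf1KO+Pcgf1_flag, and the longer form 7.63, 0 and 4.06 FPKM. The longer form thus held 54.8%, 0% and 52.8%. Between wildtype and Pcgf1KO+Pcgf1_flag the share of the longer form differed by 1.71 points at Paxip1 and by 2.00 points at Tle1.

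Bptf, the large subunit of the chromatin remodeller NURF, was the event of this group with both forms above 0 in every sample. The event lies in exon 23 of 30 (chromosome 11, 107054456 to 107055318), and its donors are 399 bases apart. The shorter form, which is not in GENCODE, had 7.21 FPKM in wildtype, 22.1 in Pcgf1KO and 13.1 in Pcgf1KO+Pcgf1_flag, and the longer form 19.6, 4.87 and 15.5 FPKM. The longer form thus held 73.1%, 18.1% and 54.3%, while the summed FPKM stayed between 26.8 and 28.6.

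Taf4b, a subunit of the general transcription factor TFIID, has donors 15 bases apart in exon 8 of 15. The longer form had 4.09 FPKM in wildtype, 0 in Pcgf1KO and 1.15 in Pcgf1KO+Pcgf1_flag, with shares of 62.2%, 0% and 21.2%. Tcf12, a basic helix-loop-helix factor, has acceptors 10 bases apart in the 5′ UTR of exon 2 of 21. Its longer form had 2.51, 5.79 and 5.08 FPKM and shares of 39.6%, 100% and 63.1%. In both genes Pcgf1KO+Pcgf1_flag lay between wildtype and Pcgf1KO.

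The last 2 events of this group had 4 forms each. Apoa2, an apolipoprotein of high-density lipoprotein, had 39.1 FPKM in wildtype and 17.9 in Pcgf1KO+Pcgf1_flag, all on a form of 80 bases, which was listed at 0 in Pcgf1KO. In Pcgf1KO the forms of 68, 83 and 99 bases had 1.89, 1.69 and 2.78 FPKM and were listed at 0 in the other samples, so the level of the gene differed as well as its forms. Ptgr1, a prostaglandin reductase, had 39.2, 50.7 and 57.2 FPKM in all. A form of 88 bases that is not in GENCODE was not listed in wildtype and held 58.3% in Pcgf1KO and 50.4% in Pcgf1KO+Pcgf1_flag. A form of 105 bases, not in GENCODE either, held 24.9% in wildtype and was not listed in the other samples.

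**Figure D5:**
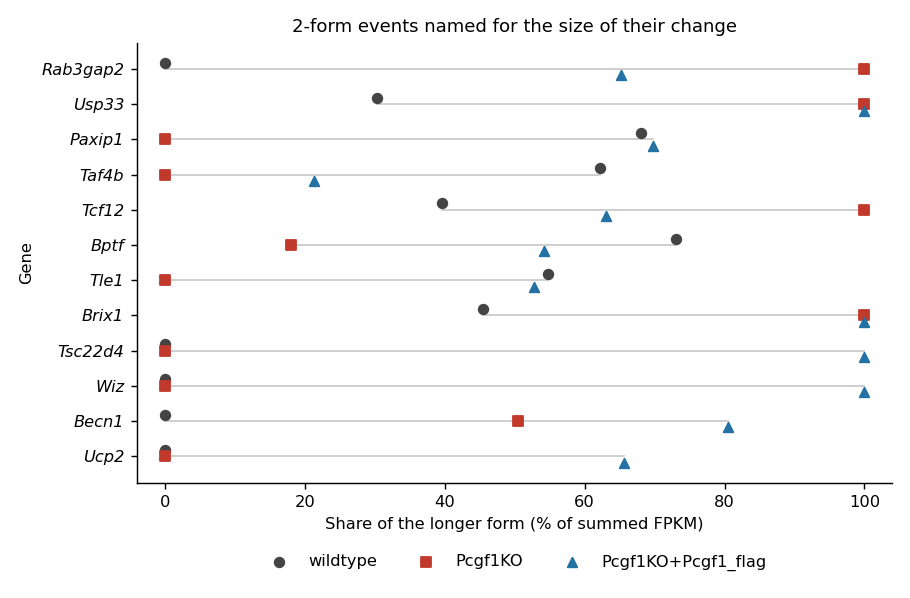
The share of the longer form in the summed FPKM (horizontal axis, %) is shown for each 2-form event named for the size of its difference between Pcgf1KO or Pcgf1KO+Pcgf1_flag and wildtype (vertical axis) in wildtype (circles), Pcgf1KO (squares) and Pcgf1KO+Pcgf1_flag (triangles), 1 sample per marker, with a grey line over their range. Pcgf1KO lies at 0% or 100% in all of them except Bptf (18.1%) and Becn1 (50.5%), and at Paxip1 and Tle1 the other samples lie close together, at 68.1% and 69.8% and at 54.8% and 52.8%.

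The largest differences between Pcgf1KO+Pcgf1_flag and wildtype, chosen in the same way, gave 4 further genes beside Usp33. Tsc22d4, a leucine zipper protein, has donors 11 bases apart, and Wiz, a zinc finger partner of the H3K9 methyltransferases G9a and GLP, has donors 28 bases apart. In Tsc22d4 the shorter form had 11.9 FPKM in wildtype, 9.33 in Pcgf1KO and 0 in Pcgf1KO+Pcgf1_flag, where the longer form had 9.45 FPKM. In Wiz the shorter form had 13.2, 14.2 and 0 FPKM, and the longer form, marked as a target of nonsense-mediated decay, had 0, 0 and 13.1 FPKM. In both genes wildtype and Pcgf1KO were alike and Pcgf1KO+Pcgf1_flag stood apart.

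Becn1, a core factor of autophagy, has donors 64 bases apart in exon 4 of 12. Its protein-coding shorter form had 11.8, 9.17 and 4.11 FPKM, and its longer form, again marked for decay, had 0, 9.33 and 16.9 FPKM, which gave shares of 0%, 50.5% and 80.5%. Ucp2, a carrier of the inner mitochondrial membrane, has acceptors 167 bases apart. Its shorter form had 42.0, 10.7 and 10.8 FPKM, and its longer form was listed at 0 in wildtype and Pcgf1KO and had 20.7 FPKM (65.7%) in Pcgf1KO+Pcgf1_flag. Becn1 thus had its outer value in Pcgf1KO+Pcgf1_flag and an intermediate one in Pcgf1KO.

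Events with both forms above 0 in every sample do not depend on a value of 0. Those described here were taken from the largest differences between Pcgf1KO and wildtype at 5 FPKM or more, after the values were seen, and Bptf had the largest of them. Hspg2, which encodes the basement membrane proteoglycan perlecan, has acceptors 18 bases apart in exon 49 of 97. Its longer form held 44.8% in wildtype, 88.5% in Pcgf1KO and 40.4% in Pcgf1KO+Pcgf1_flag. Wildtype and Pcgf1KO+Pcgf1_flag lay close together there, as at Paxip1 and Tle1.

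Further genes of this kind did not share a single pattern. Golga3, a golgin of the Golgi membrane, had longer-form shares of 89.7%, 44.6% and 62.2%, and Kif2a, a microtubule-depolymerizing kinesin, 55.9%, 21.2% and 41.7%. Rfwd2, the ubiquitin ligase also called Cop1, had 53.5%, 22.5% and 50.9%. Sltm, an RNA-binding protein related to scaffold attachment factor B, had 75.1%, 39.7% and 46.3%. Ddx11, a DNA helicase, had 72.5%, 40.6% and 46.7%, and Clspn, a mediator of the replication checkpoint, 81.0%, 50.1% and 51.5%. At Golga3, Sltm, Ddx11 and Clspn the Pcgf1KO+Pcgf1_flag value was nearer to Pcgf1KO than to wildtype, and at Kif2a and Rfwd2 it was nearer to wildtype. Some of these forms were low in wildtype, with 0.628 FPKM for the shorter form of Golga3 and 2.21 FPKM for that of Clspn.

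The most abundant events with both forms in use mostly held their shares. The 8 of highest level, also chosen after the values were seen, were led by Hsp90aa1, the stress-inducible cytosolic Hsp90 chaperone. It has acceptors 100 bases apart in the 5′ UTR of exon 2 of 11. Its shorter form had 771 FPKM in wildtype, 484 in Pcgf1KO and 502 in Pcgf1KO+Pcgf1_flag, and its longer form had 138, 360 and 450 FPKM. The longer form thus held 15.1%, 42.6% and 47.3%, and wildtype stood apart.

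In Serbp1, an mRNA-binding protein, the longer form held 23.9%, 24.6% and 25.1%, and in St13, a co-chaperone of Hsp70, it held 74.1%, 73.0% and 71.9%. Psma3, a proteasome subunit, kept its longer form at 12.4%, 14.0% and 13.3%, and Anapc5, a subunit of the anaphase-promoting complex, at 84.5%, 85.0% and 81.9%. Hmga1, an architectural chromatin protein, had 62.3%, 55.3% and 53.6%. Cltc, the clathrin heavy chain, had 29.7%, 22.6% and 23.8%. Pabpc4, a poly-A-binding protein, had 68.6%, 75.4% and 77.3%. All 7 stayed under the 20-point mark between any 2 samples.

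Polycomb genes, the group to which Pcgf1 belongs, were mostly single-form, like the measured events as a whole. Of 39 genes in the list, 17 had an event and 13 had a measured event, 20 events in all. A second form reached 10% or more at 4, 4 and 5 of the 20 in wildtype, Pcgf1KO and Pcgf1KO+Pcgf1_flag. Over all measured events this held for 23.0%, 22.6% and 22.3%. Of these 20, 1 was called between Pcgf1KO and wildtype, 2 between Pcgf1KO+Pcgf1_flag and Pcgf1KO and 1 between Pcgf1KO+Pcgf1_flag and wildtype, against 9.9%, 9.28% and 10.6% of all measured events. The median difference was 0 in each comparison, as over all measured events. Rbbp7 (164, 156 and 157 FPKM) and Usp7 (110, 103 and 122 FPKM at the higher of its events) used the longer form alone in all 3 samples. Phc1, a subunit of canonical PRC1, did so at 141 FPKM in wildtype, 63.3 in Pcgf1KO and 120 in Pcgf1KO+Pcgf1_flag.

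Both forms were in use at a few Polycomb genes, which with Eed as the exception were picked out after their values were seen. At Ezh2, the methyltransferase of PRC2, the longer of 2 donor forms 27 bases apart held 59.7% in wildtype, 76.2% in Pcgf1KO and 67.4% in Pcgf1KO+Pcgf1_flag. At Eed, the PRC2 subunit that binds methylated H3K27, donors 89 bases apart gave longer-form shares of 82.5%, 77.2% and 70.8%. At Bcor, a partner of Pcgf1 in PRC1.1, acceptors 102 bases apart gave 68.2%, 57.5% and 58.4% at 4.06, 5.33 and 9.49 FPKM. None of these 3 reached 20 points between any 2 samples.

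The called Polycomb events were at Auts2 and Cbx7. Auts2, a partner of variant PRC1, has donors 21 bases apart (chromosome 5, 131472238 to 131472479). Its shorter form had 4.20 FPKM in wildtype, 1.53 in Pcgf1KO and 2.54 in Pcgf1KO+Pcgf1_flag, and its longer form had 0, 2.32 and 1.06 FPKM, a share of 0%, 60.3% and 29.4%. Cbx7, a chromodomain subunit of canonical PRC1, has 3 forms, of which the longest held 17.6%, 0% and 21.6% at 71.4, 51.9 and 57.0 FPKM in all.

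Pcgf1 itself has an acceptor event 26 bases wide (chromosome 6, 83080054 to 83080140), in exon 7 of 9 and thus outside the deleted exons. The longer form carried all of the FPKM in each sample, 14.0 in wildtype, 5.88 in Pcgf1KO and 7.86 in Pcgf1KO+Pcgf1_flag, and the shorter form was listed at 0. The event checks the level of Pcgf1 transcripts and not the deletion. Of other genes that the study names, Kdr, Klf4, Hhip, Neurod1, Hes2 and Nptx1 had 0 events of this kind.

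Splicing factors, which recognize or regulate splice sites, had 22 measured events in 15 genes of a list of 51. Of these 22, 1, 0 and 0 were called in the comparisons in the same order. The percentages were 9.9, 9.28 and 10.6 over all measured events and 3.48, 3.77 and 4.06 over those at 30 FPKM or more. Most of the 22 events were at 30 FPKM or more in every sample. The called event was at Ptbp1, a repressor of exon inclusion, with 292, 270 and 243 FPKM. It has 3 forms, of which the middle one of 200 bases held 0% in wildtype, 25.9% in Pcgf1KO and 19.8% in Pcgf1KO+Pcgf1_flag, and the longest of 320 bases the rest. Hnrnpk used its longer form alone at 351, 345 and 335 FPKM. The events of Hnrnph1 and Snrnp70 with more than 2 forms chain exons that do not overlap, so their shares are not given as a choice.

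Of other splicing factors, also picked out after their values were seen, Rbm39 and Rbfox2 used both forms in like shares. Rbm39 had longer-form shares of 55.9%, 51.8% and 54.6% at an acceptor pair 18 bases apart, and Rbfox2 had 66.8%, 67.8% and 63.2% at acceptors 12 bases apart. At Esrp1, a regulator of epithelial splicing, the shorter form of a donor pair 12 bases apart was listed at 0 in wildtype and Pcgf1KO, and the longer form held 83.2% in Pcgf1KO+Pcgf1_flag.

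Pluripotency genes had few events. Of 31 genes in the list, 5 had an event and 4 had a measured one, in 6 events, of which 0 were called in each comparison against 9.9%, 9.28% and 10.6% of all measured events. Sall4 (37.8, 45.2 and 46.8 FPKM), Tcf7l1 (43.0, 48.5 and 34.5 FPKM) and Stat3 (24.7, 21.8 and 21.0 FPKM at the higher of its events) used the longer form alone. Tcl1, a co-activator of Akt kinases, had 9.11, 4.50 and 31.5 FPKM, all on the longer form of its AE event.

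Ribosomal protein genes had 23 measured events by the pattern of their names and 0 calls in each comparison, against 9.9%, 9.28% and 10.6% of all measured events and 3.48%, 3.77% and 4.06% of those at 30 FPKM or more. Of these, 6 were events of Rps6k genes, which encode kinases and not ribosomal proteins. In the other 17, no second form was above 0 in any sample. Rps6ka6 used both acceptors of a pair 15 bases apart, with longer-form shares of 52.4%, 52.5% and 51.5%.

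DNA methylation and chromatin genes had 14 measured events in 10 genes of a list of 26, with 0 calls in each comparison against 9.9%, 9.28% and 10.6% of all measured events. Uhrf1, which brings Dnmt1 to replicated DNA, has acceptors 24 bases apart. Its shorter form was listed at 0 in wildtype and had 19.9 FPKM (18.7%) in Pcgf1KO and 15.7 FPKM (17.7%) in Pcgf1KO+Pcgf1_flag, just under the 20-point mark. Ehmt2, Tet1 and Arid1a each used a single form in all 3 samples. At Arid1a the unused inner donor carries GC in place of GT, and it is 1 of the 49 measured donor events with GC there.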

How the data were processed

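RNA from 3 samples was analysed, 1 per group, taken from the labels. Each file deposited by the authors lists the transcript events of 1 sample, and every row has an FPKM. Per the submitters' processing notes, TopHat2 2.0.12, Cufflinks 2.2.1 and HTSeq 0.6.0 were used with mm10, and the program that listed the events is not given in the sources used here. No counts were at hand, so no count test was run. The library kit is not stated to keep strand, so overlapping genes on opposite strands cannot be told apart. Forms were matched between files by class, gene name, strand and coordinates, and a form missing from a file was given a share of 0. The share of a form is its FPKM over the summed FPKM of its event, and a difference of 20 percentage points was called at 1 FPKM or more. Coordinates of some exon skipping rows had been altered by spreadsheet formatting, and such rows serve the background only.

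Exon positions, transcript types and sequences came from GENCODE vM21. A segment counts as coding when it lies within the coding span of a protein-coding transcript that holds the longer form, or else the shorter. Named events are the 10 largest differences between Pcgf1KO and wildtype and the 5 largest between Pcgf1KO+Pcgf1_flag and wildtype at 5 FPKM or more, the 5 of highest level, all with a single gene name, up to 4 per gene list, and genes that the study names. Other list genes were named after their values were seen. Some items are not reported here. Members and lists were chosen with earlier results of these data known. The scripts were tested on simulated data. Alternatives changed the FPKM minimum, the size called, a pseudocount, the classes and the listing. Scripts ran in Python 3.11.15 (numpy 2.4.6, pandas 2.3.3, matplotlib 3.10.9).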

Additional observations from a re-analysis of the deposited data

How the results depend on the processing

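Counts of called events are given in the order Pcgf1KO against wildtype, Pcgf1KO+Pcgf1_flag against Pcgf1KO, and Pcgf1KO+Pcgf1_flag against wildtype. With no minimum beyond a summed FPKM above 0 they were 571, 519 and 590, and with a minimum of 5 FPKM 158, 161 and 180. At 10 percentage points they were 565, 528 and 580, and at 40 points 97, 88 and 94. With at least 2 forms above 0 in every sample, a setting added after seeing the data, they were 94, 81 and 105. This setting left 512 events, so the percentages called were 18.4, 15.8 and 20.5, higher than the main 9.9, 9.28 and 10.6. The counts stayed within 1.5 times the main ones with a pseudocount of 0.1 FPKM per form (301, 286 and 322), with AE rows only, with forms listed in all 3 files and with single gene names, as well as in 3 settings added after seeing the data: 2-form events only, overlap alone as the tie, and AE and XAE pooled. Of 52 named form differences, 52 kept their direction and 20 points with the pseudocount. The 52 count each form of an event and both comparisons with wildtype, so they are not separate events. They were chosen for their size or as calls, and 0.1 FPKM is small beside their levels. The outcome was thus largely set in advance.

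No paired analysis was possible because each group has 1 sample, and no replicate was left out for the same reason. The number of reads is unknown. A form listed at 0 is not shown to be absent.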
